A study of Mus musculus with 8 samples.

Results

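The genes described here encode the catalytic, core and accessory subunits of Polycomb repressive complex 2 (PRC2). They were taken by name from the table of normalized RNA-seq values, in which all 9 of them, Ezh2, Ezh1, Eed, Suz12, Mtf2, Phf1, Phf19, Jarid2 and Aebp2, were present among 20926 genes. The samples were molar mesenchyme of mice at postnatal (PN) day 3, collected after the epithelium had been taken off. The 4 control samples were Ezh2fl/fl, with no Cre named in their labels, and the 4 Osr2-Cre;Ezh2fl/fl samples carried the same floxed Ezh2 alleles together with a knock-in of Cre at Osr2. All samples are labelled C57BL/6, whereas the study's methods give a mixed background and both sexes. The Cre acts in the dental mesenchyme and the alveolar bone, so cells outside these lineages keep an intact Ezh2 gene in both groups.

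PRC2 places methyl groups on lysine 27 of histone H3, a mark of silenced genes. Ezh2 and Ezh1 are alternative catalytic subunits, each of which works only together with Eed and Suz12. In many tissues Ezh2 is abundant in dividing cells, and Ezh1 is the form kept in cells that have stopped dividing. Accessory subunits define 2 forms of the complex. Mtf2, Phf1 and Phf19 belong to PRC2.1, and Jarid2 and Aebp2 belong to PRC2.2.

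Estimated depth was 48.3 to 68.8 M reads per library, and libraries of the same group correlated at 0.988 to 0.996 across genes (Pearson, log2(value + 1)). Values are normalized reads per gene with no gene-length factor. Osr2-Cre;Ezh2fl/fl library 3 stood apart. Its summed level of 17 proliferation genes was 976, against 1271 to 1589 in the other 7 libraries. The summed level of the enamel genes Amelx, Ambn and Enam was 11280 in that library, 15516 and 28280 in control libraries 3 and 4, and 675 to 2298 in the other 5. Markers of dental mesenchyme were present in every library, with a summed level of 451 to 550.2 in the control and 542 to 601 in the Osr2-Cre;Ezh2fl/fl libraries. The same sum over the 7 epithelial markers, all of them measured, was 2220.2 to 31754 in the control and 2202 to 13320.2 in the Osr2-Cre;Ezh2fl/fl libraries, so epithelial transcripts remained in samples from which the epithelium had been removed. The summed level of 4 endothelial markers was 290.2 to 323 in the control and 249 to 275 in the Osr2-Cre;Ezh2fl/fl libraries, with 0 of 4 called after adjustment, and that of 3 odontoblast markers was 1524 to 3013 and 671 to 2466. Among the marker lists, 1 of 8 genes of the dental mesenchyme (Lhx8, higher) was called after adjustment, and 0 of the epithelial, odontoblast, leukocyte, Schwann, erythroid and skeletal muscle markers tested, where 2.07% of all genes were. Log2 fold changes were negative for 1 of 8 dental mesenchyme, 7 of 7 epithelial, 3 of 3 odontoblast, 4 of 4 endothelial, 1 of 4 leukocyte, 0 of 2 Schwann, 0 of 3 erythroid and 1 of 1 muscle genes tested, and for 45.9% of all genes. The part of such differences in the PRC2 values below was not tested, except where a fit with them is given.

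Because Ezh1 and Ezh2 are paralogs, their coding sequences were first compared, to see whether reads of 75 bases from one could be assigned to the other. The most similar ungapped stretch of that length is shown for each gene, as taken from GENCODE release M21 on GRCm38 (the build of mm10), with the differing bases in capitals.
Ezh1: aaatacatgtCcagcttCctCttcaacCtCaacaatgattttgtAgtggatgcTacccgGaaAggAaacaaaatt
Ezh2: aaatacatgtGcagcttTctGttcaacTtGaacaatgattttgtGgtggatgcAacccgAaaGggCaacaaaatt
The Ezh1 stretch is exonic coding sequence in exons 18 and 19 of 21, read 5′ to 3′ on the minus strand from chr11:101194468-101194504 and chr11:101193769-101193806. The Ezh2 stretch lies in exons 17 and 18 of 20, on the minus strand at chr6:47532902-47532938 and chr6:47532028-47532065. Even here the genes differed at 10 of 75 bases, and the longest run of bases shared by any Ezh1 and any Ezh2 transcript was 17. The values of the 2 genes are therefore described separately.

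Ezh2, the catalytic subunit that the Cre targets, lies on the minus strand of chromosome 6 (chr6:47530139-47595341). Control libraries 1 to 4 had values of 55.0, 38.3, 39.6 and 39.0, whereas Osr2-Cre;Ezh2fl/fl libraries 1 to 4 had 35.2, 30.1, 23.2 and 36. Every Osr2-Cre;Ezh2fl/fl library was below every control library, although the gap between the groups was small. Control library 1 was far above the other control libraries and Osr2-Cre;Ezh2fl/fl library 3 was the lowest of its group. The mean was 42.9 ± 8.03 (SD, n = 4) in the control against 31.1 ± 5.92 (SD, n = 4), and the difference had a p of 0.0286 in a two-sided exact permutation test, the smallest p that 4 against 4 libraries allow. In limma's test over 14854 genes the log2 fold change of (value + 1) was -0.46 (standard error 0.16, 95% interval -0.81 to -0.10), with an unadjusted p of 0.0179 and an adjusted p of 0.235. Thus the Ezh2 difference did not pass the adjusted threshold of 0.05. These values rest on 1636 to 3162 estimated reads per library.

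A reduced but sizeable Ezh2 level remained in Osr2-Cre;Ezh2fl/fl molars. The mean was 72.5% of the control mean, and single Osr2-Cre;Ezh2fl/fl libraries were at 82.1%, 70.2%, 53.9% and 83.9% of it. The ratio of geometric means from limma on log2 of the value was 72.3%, with a 95% interval of 56.0% to 93.3%, and the ratio of medians was 83.3%. Across all pairs of 1 Osr2-Cre;Ezh2fl/fl and 1 control library, the ratio ran from 42.1% to 94.0%. Without control library 1 the ratio of means was 80.0%, and without Osr2-Cre;Ezh2fl/fl library 3 it was 78.7%. The log2 fold change was -0.33 and -0.32 in these respective fits, with adjusted p of 0.330 and 0.315.

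The value is summed over the whole gene. The floxed allele removes exons that encode the catalytic SET domain, and reads from the remaining exons of a recombined allele would still be counted, so the gene-level value alone does not measure recombination. In whole-tissue samples, fewer cells with Ezh2 transcripts and less transcript per cell also cannot be told apart. Adjusted for the mean level of the 3 enamel genes, the Ezh2 log2 fold change was -0.64 (adjusted p = 0.0274, limma). In the 5 libraries low in these transcripts, a selection made once the values were known, it was -0.43 (adjusted p = 0.657, limma). These were control libraries 1 and 2 and Osr2-Cre;Ezh2fl/fl libraries 1, 2 and 4, and control library 1 held the high Ezh2 value of 55.0. With limma's array weights the Ezh2 log2 fold change was -0.19 (adjusted p = 0.135), in a fit that gave Osr2-Cre;Ezh2fl/fl library 4 a weight of 9.66 and no other library more than 2.31. The direction was the same in all of these fits. Gm26625, a noncoding gene on the opposite strand within Ezh2, was listed at 0.0307 to 0.168, far below Ezh2. Osr2, whose locus carries the Cre, was at 32.8 to 49.7 in the control and 43.3 to 58.4 in the Osr2-Cre;Ezh2fl/fl libraries (log2 fold change 0.25, adjusted p = 0.492, limma), and the 2 ranges overlapped.

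**Figure D1:**
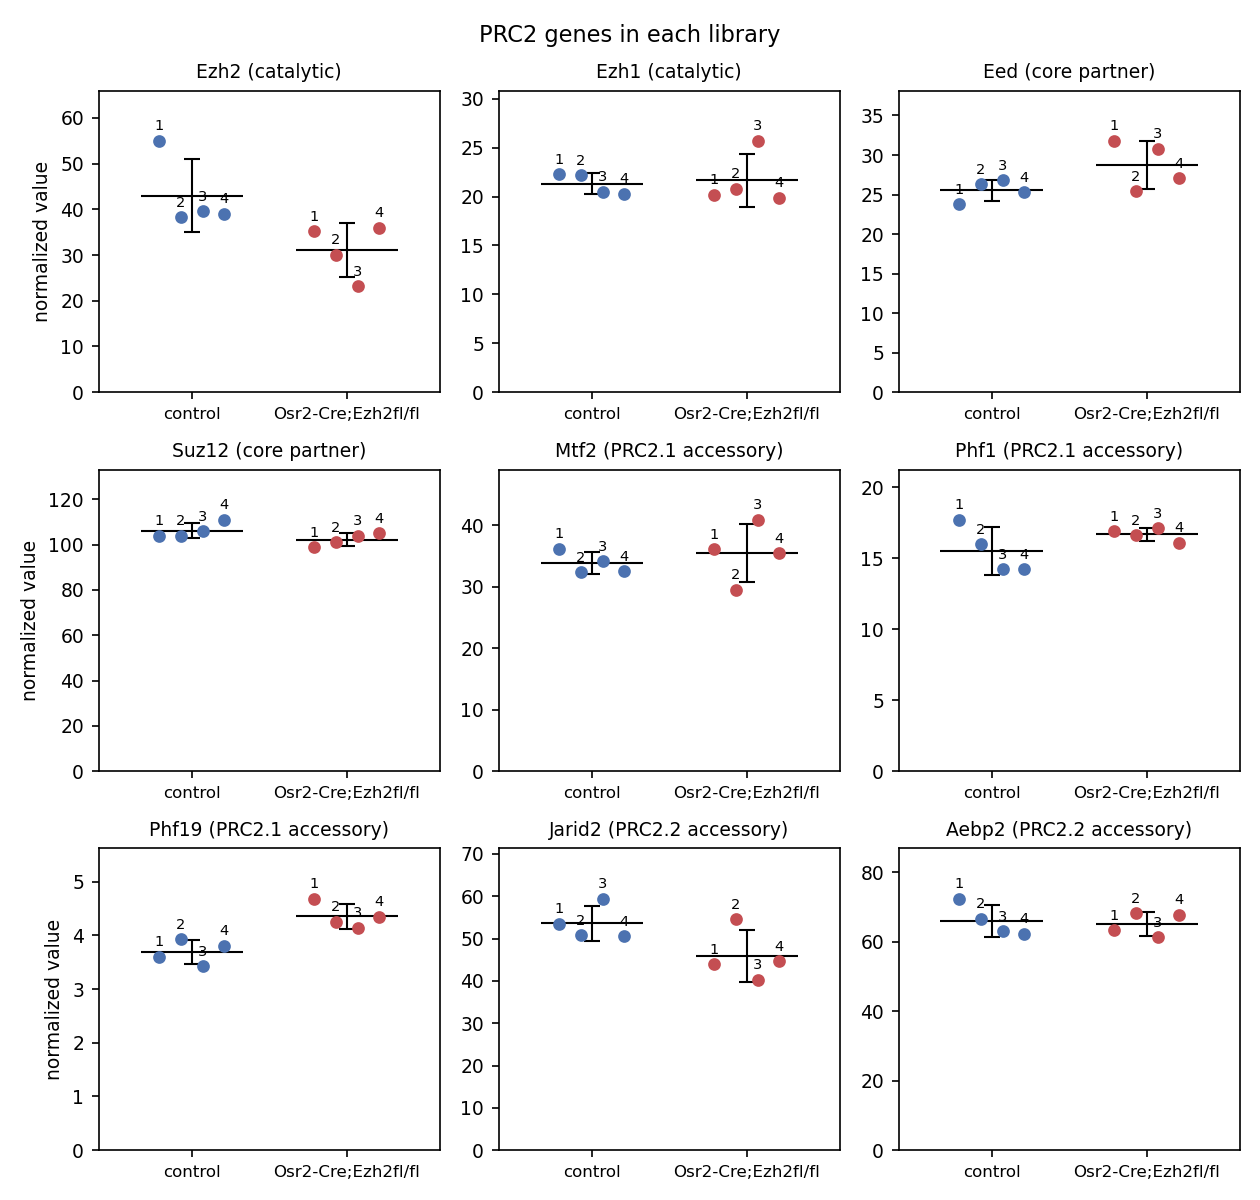
Normalized value (y axis, starting at 0) of each PRC2 gene in the 4 control (blue) and 4 Osr2-Cre;Ezh2fl/fl (red) libraries; numbers are library numbers, horizontal lines are means and bars are SD (n = 4). The groups are apart for Ezh2, where all Osr2-Cre;Ezh2fl/fl libraries are lower, and for Phf19, where all are higher, and they overlap for the other 7 genes.

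Ezh1, the other catalytic subunit (minus strand, chr11:101191115-101226463), had values of 22.3, 22.2, 20.5 and 20.3 in the control libraries. In the Osr2-Cre;Ezh2fl/fl libraries it was at 20.2, 20.8, 25.7 and 19.9. Libraries 1, 2 and 4 lay within or just below the control range and library 3 alone lay above it. The mean was 21.3 ± 1.06 in the control against 21.7 ± 2.72 (SD, n = 4 each), with a p of 0.914 in the two-sided exact permutation test. In limma the log2 fold change was 0.01 with a standard error of 0.09 (adjusted p = 0.976). The Osr2-Cre;Ezh2fl/fl level was 101% of control, with a 95% interval of 86.8% to 118%. Without Osr2-Cre;Ezh2fl/fl library 3 the log2 fold change was -0.07 (adjusted p = 0.718, limma). Thus no difference in Ezh1 was detectable in these libraries, and a difference within that interval could have been missed.

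Per kilobase of exon, Ezh2 exceeded Ezh1 in every library. The ratio of Ezh2 to Ezh1 on this scale was 5.35, 3.74, 4.18 and 4.16 in the control and 3.78, 3.15, 1.95 and 3.92 in the Osr2-Cre;Ezh2fl/fl libraries. Ezh1 made up 15.8%, 21.1%, 19.3% and 19.4% of the summed Ezh1 and Ezh2 level per kb in the control libraries, and 20.9%, 24.1%, 33.9% and 20.3% in the Osr2-Cre;Ezh2fl/fl libraries. The groups overlapped, and the highest share came from library 3, in which Ezh2 was lowest and Ezh1 highest. The mean share was 18.9% ± 2.24 in the control and 24.8% ± 6.26 in the Osr2-Cre;Ezh2fl/fl libraries (SD, n = 4 each). On the log2 scale the ratio of Ezh1 to Ezh2 values was 0.48 higher in Osr2-Cre;Ezh2fl/fl, and 0.26 higher without library 3. The summed level of both catalytic genes per kb was 17.2 to 23.3 in the control and 12.5 to 16.1 in the Osr2-Cre;Ezh2fl/fl libraries, with a mean at 77.9% of control and no overlap between the groups. The Ezh2 exon length was the same in both groups, so these values per kb do not allow for a shorter recombined transcript.

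**Figure D2:**
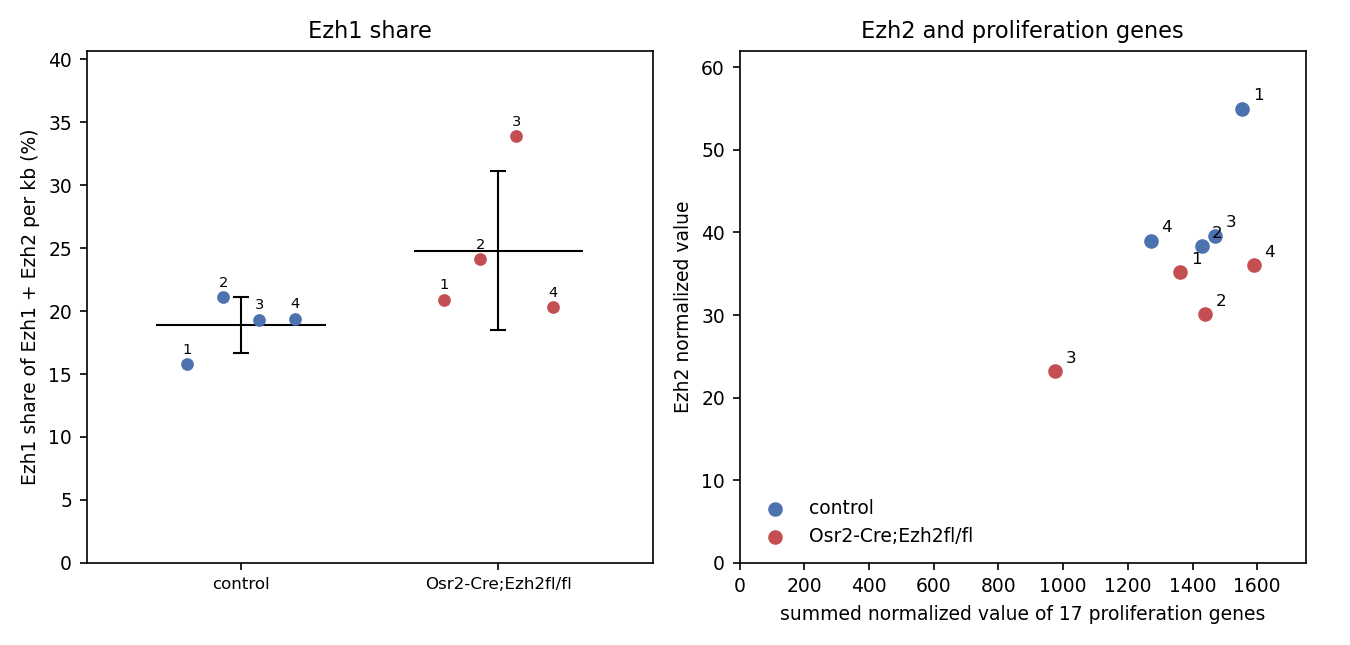
Left, Ezh1 as a percentage of the summed Ezh1 and Ezh2 level per kb (y axis) in each library, with mean and SD (n = 4). Right, Ezh2 normalized value against the summed normalized value of 17 proliferation genes in each library; numbers are library numbers. Osr2-Cre;Ezh2fl/fl library 3 has the highest Ezh1 share, 33.9%, the lowest Ezh2 value, 23.2, and the lowest proliferation sum, 976.

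The core partners Eed and Suz12 were measured at levels near control. Eed, which binds the methylated histone tail and activates the enzyme (minus strand, chr7:89954654-89980983), was at 23.8, 26.3, 26.8 and 25.3 in the control and 31.8, 25.4, 30.8 and 27.1 in the Osr2-Cre;Ezh2fl/fl libraries. Its Osr2-Cre;Ezh2fl/fl values reached higher, but library 2 lay inside the control range. Its log2 fold change of 0.16 had a standard error of 0.09 (adjusted p = 0.505, limma), and the level was 112% of control with a 95% interval of 97.6% to 129%. Suz12, the scaffold on which the complex assembles (plus strand, chr11:79993106-80034123), was at 104, 104, 106 and 111 in the control and 98.8, 101, 104 and 105 in the Osr2-Cre;Ezh2fl/fl libraries. The Suz12 groups overlapped, with SDs of 3.20 and 2.81. By coefficient of variation, 3.01% in the control and 2.75% in the Osr2-Cre;Ezh2fl/fl libraries, it was among the least variable members. Its log2 fold change of -0.05 had a standard error of 0.06 (adjusted p = 0.802, limma), and the level was 96.3% of control with a 95% interval of 88.1% to 105%.

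Relative to Eed, Ezh2 was lower in every Osr2-Cre;Ezh2fl/fl library. The ratio of their values was 2.31, 1.46, 1.48 and 1.54 in the control and 1.11, 1.19, 0.752 and 1.33 in the Osr2-Cre;Ezh2fl/fl libraries, a mean ratio at 64.5% of control. The ratio of Ezh2 to Suz12 was 0.351 to 0.529 in the control and 0.222 to 0.357 in the Osr2-Cre;Ezh2fl/fl libraries. Here the groups overlapped narrowly. These ratios are given as a description, without a test.

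Among the PRC2.1 subunits, which bind chromatin through CpG-rich DNA and methylated H3K36, Phf19 was the member whose groups did not overlap. It lies on the minus strand at chr2:34893757-34914026 and had values of 3.60, 3.93, 3.42 and 3.81 in the control and 4.68, 4.25, 4.14 and 4.35 in the Osr2-Cre;Ezh2fl/fl libraries. All 4 Osr2-Cre;Ezh2fl/fl values were higher, which gave the lowest possible p of the exact permutation test, 0.0286. Phf19 was not called over all genes, with a log2 fold change of 0.19 (95% interval 0.00 to 0.38, adjusted p = 0.379, limma). Phf19 was also the lowest member, with 198 to 336 estimated reads per library, and on log2 of the value without a pseudocount it was at 118% of control (95% interval 99.5% to 140.2%). Mtf2, at chr5:108065674-108109004 on the plus strand, was at 32.4 to 36.2 in the control and 29.5 to 40.9 in the Osr2-Cre;Ezh2fl/fl libraries (log2 fold change 0.06, adjusted p = 0.893, limma). Phf1, at chr17:26933052-26937908 on the plus strand, was at 14.2 to 17.7 and 16.1 to 17.1 (log2 fold change 0.10, adjusted p = 0.746, limma). Both genes had overlapping groups. Both also overlap a protein-coding gene on the opposite strand, Tmed5 for Mtf2 and Cuta for Phf1, and the sources used here do not state whether reads were counted by strand.

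Of the PRC2.2 subunits, Jarid2, which helps to bring the complex to its targets (plus strand, chr13:44729474-44921643), was at 53.5, 50.8, 59.4 and 50.6 in the control and 43.9, 54.6, 40.3 and 44.6 in the Osr2-Cre;Ezh2fl/fl libraries. Osr2-Cre;Ezh2fl/fl libraries 1, 3 and 4 were below all control libraries, and library 2 was within the control range. The log2 fold change of Jarid2 was -0.23 (SE 0.10, unadjusted p = 0.0469, adjusted p = 0.367, limma), at 85.2% of control (95% interval 72.8% to 99.7%). Aebp2, a zinc finger protein that stabilizes the complex (plus strand, chr6:140622663-140678472), was at 62.2 to 72.3 in the control and 61.2 to 68.2 in the Osr2-Cre;Ezh2fl/fl libraries. Its groups overlapped almost fully (log2 fold change -0.02, adjusted p = 0.957, limma). Jarid2 and Aebp2 together made up 52.5% ± 1.13 of the summed level per kb of the 5 accessory genes in the control and 48.7% ± 4.04 in the Osr2-Cre;Ezh2fl/fl libraries (SD, n = 4 each), with overlapping groups.

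All 9 members passed the filter on low values. At an adjusted p under 0.05, 0 of them were called by limma, where 2.07% of all genes tested were (1.56% higher and 0.512% lower). At an unadjusted p under 0.05, which 13.1% of all genes reached, Phf19 was called higher, against 8.27% of all genes, and Ezh2 and Jarid2 lower, against 4.87%. The groups did not overlap for 8.53% of all genes (5.76% higher, 2.77% lower) and for 2 of the 9 members, Phf19 being higher and Ezh2 lower. The median log2 fold change was 0.01 over the members and 0.01 over all genes tested. With array weights, the fit in which 1 library dominated, Jarid2 (-0.26, adjusted p = 0.0170, limma) and Phf19 (0.20, adjusted p = 0.0302, limma) passed the threshold and Ezh2 did not, where 27.2% of all genes were called.

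**Figure D3:**
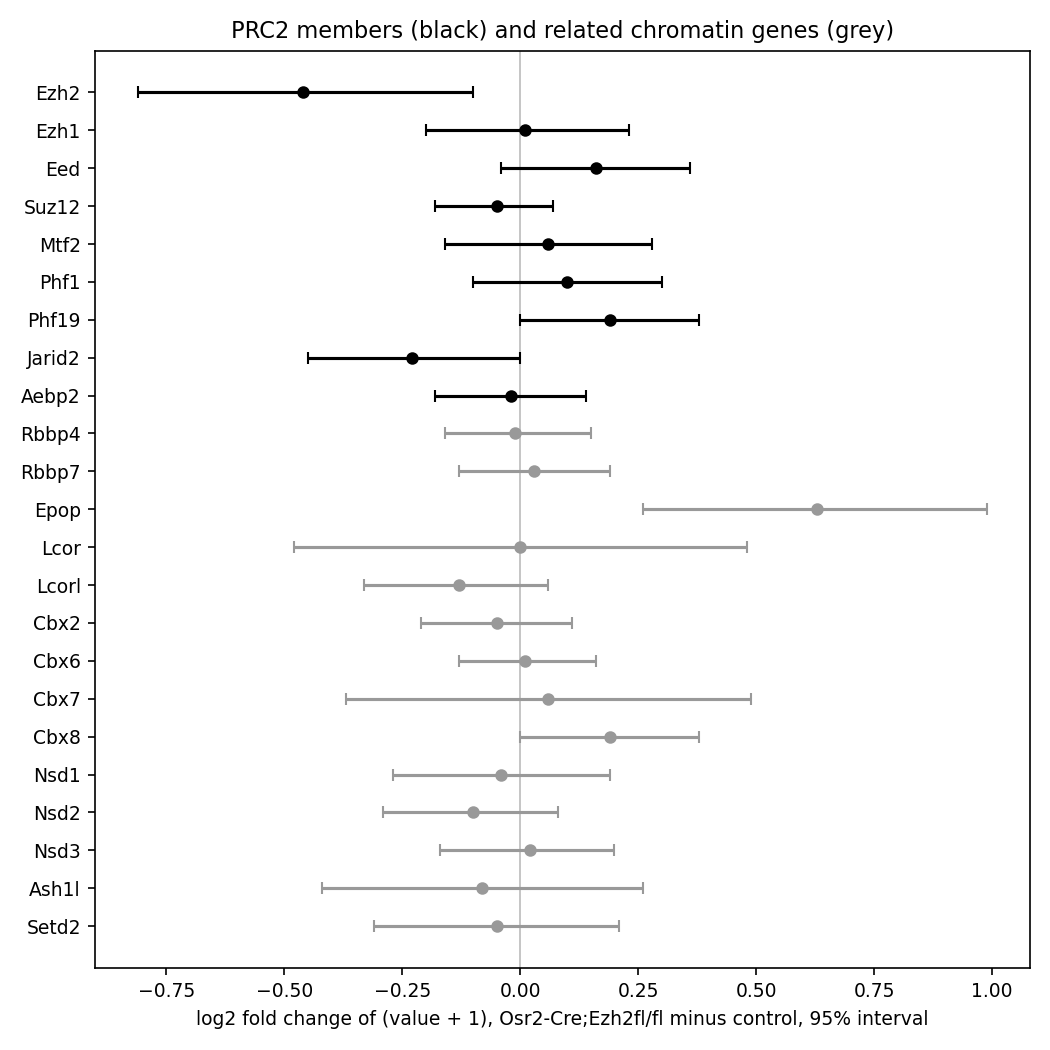
Log2 fold change of (value + 1), Osr2-Cre;Ezh2fl/fl minus control (x axis), with 95% intervals from limma, for the 9 PRC2 members (black) and the partner, chromobox and H3K36 methyltransferase genes (grey); the demethylase genes are not plotted. Of the genes plotted, Ezh2 is lowest at -0.46 and Epop highest at 0.63, and none passed an adjusted p of 0.05.

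Levels between genes were compared per kb of exon. In the control the order of the mean levels per kb was Suz12 (24.3), Ezh2 (15.3), Eed (12.4), Jarid2 (8.70), Mtf2 (8.33), Aebp2 (8.09), Phf1 (5.88), Ezh1 (3.51) and Phf19 (0.986). Jarid2, Mtf2 and Aebp2 had overlapping ranges and could not be ordered, whereas the ranges of all other neighbours were apart. In the Osr2-Cre;Ezh2fl/fl libraries Eed (13.9) stood above Ezh2 (11.1), and Mtf2 (8.75) and Aebp2 (7.97) above Jarid2 (7.45). However, the ranges of Ezh2, Mtf2, Aebp2 and Jarid2 overlapped. Those of Eed and Ezh2 overlapped too, although within each of the 4 libraries Eed per kb was above Ezh2 (15.4 against 12.6, 12.3 against 10.8, 14.9 against 8.26 and 13.1 against 12.9). The same Ezh2 exon length was used in both groups. A transcript without the floxed exons is shorter, so Ezh2 per kb may be understated in Osr2-Cre;Ezh2fl/fl, and in library 4 the 2 genes differed little. In every control library Ezh2 per kb was above Eed, with 13.7 to 19.6 against 11.5 to 12.9.

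**Figure D4:**
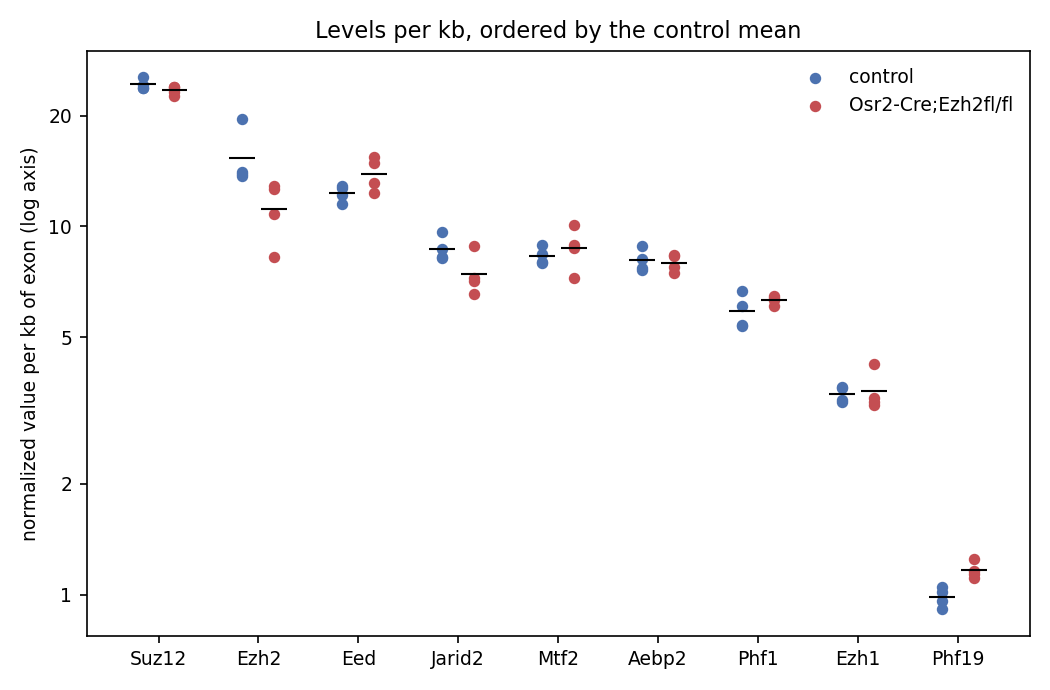
Normalized value per kb of exon (log axis) of the PRC2 genes in the control (blue) and Osr2-Cre;Ezh2fl/fl (red) libraries, in the order of the control means; points are libraries and lines are means. Ezh2 is above Eed in the control and below it in mean level in Osr2-Cre;Ezh2fl/fl, and Ezh1 lies at 3.51 and 3.56. The Ezh2 exon length is the same in both groups and does not allow for a shorter recombined transcript.

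The members also differed in how much they varied within a group. The coefficient of variation of Ezh2 was 18.7% in the control and 19% in the Osr2-Cre;Ezh2fl/fl libraries, the highest of the 9 genes in both groups. This rested on 1 library in each group: without control library 1 it was 1.64%, the lowest of the members, and without Osr2-Cre;Ezh2fl/fl library 3 it was 9.44%, below Jarid2, Eed and Mtf2. Suz12, with 3.01% and 2.75%, varied little.

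Within the groups, Ezh2 correlated positively and Ezh1 negatively with the proliferation genes listed, with some of them weakly. After the group means were taken out, the Pearson correlation of log2(value + 1) over the 8 libraries was positive between Ezh2 and all 17 proliferation genes, from 0.267 for Pcna to 0.889 for the mitotic cyclin Ccnb1 (Spearman 0.286 and 0.810). Between Ezh1 and the same genes it was negative for all 17, from -0.946 for the replication gene Mcm3 to -0.163 for Hells (Spearman -0.833 and -0.048). Without control library 1 and Osr2-Cre;Ezh2fl/fl library 3, the Ezh2 correlations lay between 0.17 for E2f1 and 0.91 for Rrm2, and the Ezh1 correlations between -0.86 for Rrm2 and -0.02 for Mki67. Between Ezh2 and Ezh1 themselves it was -0.537 over 8 libraries. These correlations describe 8 points, with all genes measured in the same libraries, and carry no p. The share of all genes tested with the same sign is not given here, so whether 17 of 17 is unusual was not tested. None of the 17 proliferation genes was called at the adjusted threshold, 13 of them had a negative log2 fold change (45.9% of all genes tested did), and their median was -0.05. Without Osr2-Cre;Ezh2fl/fl library 3, 2 of the 17 were negative (44.3% of all genes) and the median was 0.09. Adjusted for these genes, a choice made once the values were known, the Ezh2 log2 fold change was -0.40 (adjusted p = 0.0953, limma).

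Over all genes tested, the 5 whose group-centred values were most like those of Ezh2 were Mrps6 (Pearson 0.988), 1700030K09Rik (0.987), Zbtb11os1 (0.971), Pagr1a (0.968) and Ptcd2 (0.968). For Ezh1 they were 9930104L06Rik (0.984), Zfp317 (0.983), Cpsf7 (0.983), Ccdc62 (0.978) and Tcp11l2 (0.976). Neither set holds another PRC2 member.

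As the correlations of Ezh2 and Ezh1 with the proliferation genes had opposite signs, the sequences just before their start sites are shown. They are from RefSeq on GRCm38.p6, minus strand, 29 to 153 bases before the annotated start. This stretch of 125 bases overlaps no exon of the gene shown in GENCODE M21, and exons of other genes were not checked. For Ezh2 it lies inside the gene's span because some transcripts start farther upstream. Capitals mark the 5 letters CCAAT, or ATTGG where they are on the other strand, a motif common before genes of the cell cycle that was looked for after the values were known.
Ezh2: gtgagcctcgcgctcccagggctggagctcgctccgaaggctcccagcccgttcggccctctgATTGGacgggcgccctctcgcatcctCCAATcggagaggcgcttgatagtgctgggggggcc
Ezh1: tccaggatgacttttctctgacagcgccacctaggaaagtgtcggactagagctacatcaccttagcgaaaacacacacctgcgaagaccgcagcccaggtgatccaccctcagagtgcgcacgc
The Ezh2 stretch lies at chr6:47595059-47595183 and the Ezh1 stretch at chr11:101226492-101226616. Ezh2 had 3 matches in the 250 bases before its start, a number reached by 2.8% of 32851 RefSeq windows of that length, and 33.8% of the windows held at least 1. The Ezh1 window held 0. By window, at least 1 match was found in 5 of the 13 windows of the 9 members (38.5%) and in 12 of the 16 windows of the proliferation genes (75%). The matches describe the sequence only.

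Other genes of the pathway were examined as lists. Of the PRC2 partners outside the members, 5 of 6 were analysed and 0 of these were called at the adjusted threshold. Epop, an accessory protein of PRC2.1, had values of 11.2, 9.40, 10.6 and 9.33 in the control and 20.3, 16.6, 11.1 and 18.1 in the Osr2-Cre;Ezh2fl/fl libraries. Libraries 1, 2 and 4 of the latter were above all control libraries and library 3 was not. Epop had a log2 fold change of 0.63 (SE 0.16, adjusted p = 0.0965 in limma, and p = 0.0571 in the two-sided exact permutation test), and without library 3 it was 0.79 (adjusted p = 0.0145, limma). It also passed the threshold with array weights (0.77, adjusted p = 0.000201, limma), in the same fit that called 27.2% of all genes, and adjusted for the proliferation genes (0.69, adjusted p = 0.00959), and was 0.48 (adjusted p = 0.162) adjusted for the enamel genes. The histone-binding subunits Rbbp4 and Rbbp7 had log2 fold changes of -0.01 and 0.03.

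None of the 3 genes of the H3K27 demethylase family was called. Uty, which is on the Y chromosome, was listed at 0.0152 and 0.0283 in Osr2-Cre;Ezh2fl/fl libraries 2 and 3, against 9.96 to 24.2 in the other 6, so the libraries came from both sexes. With log2 Xist as a covariate the Ezh2 log2 fold change was -0.45 (adjusted p = 0.291, limma). Of the chromobox genes Cbx2, Cbx6, Cbx7 and Cbx8, whose proteins read the mark as part of PRC1, 0 were called. Cbx8 was higher in all 4 Osr2-Cre;Ezh2fl/fl libraries, at 10.3 to 11.8 against 8.70 to 9.88 (log2 fold change 0.19, adjusted p = 0.372, limma). Of the 5 H3K36 methyltransferase genes, whose mark opposes PRC2, 0 were called, with log2 fold changes of -0.10 to 0.02.

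**Figure D5:**
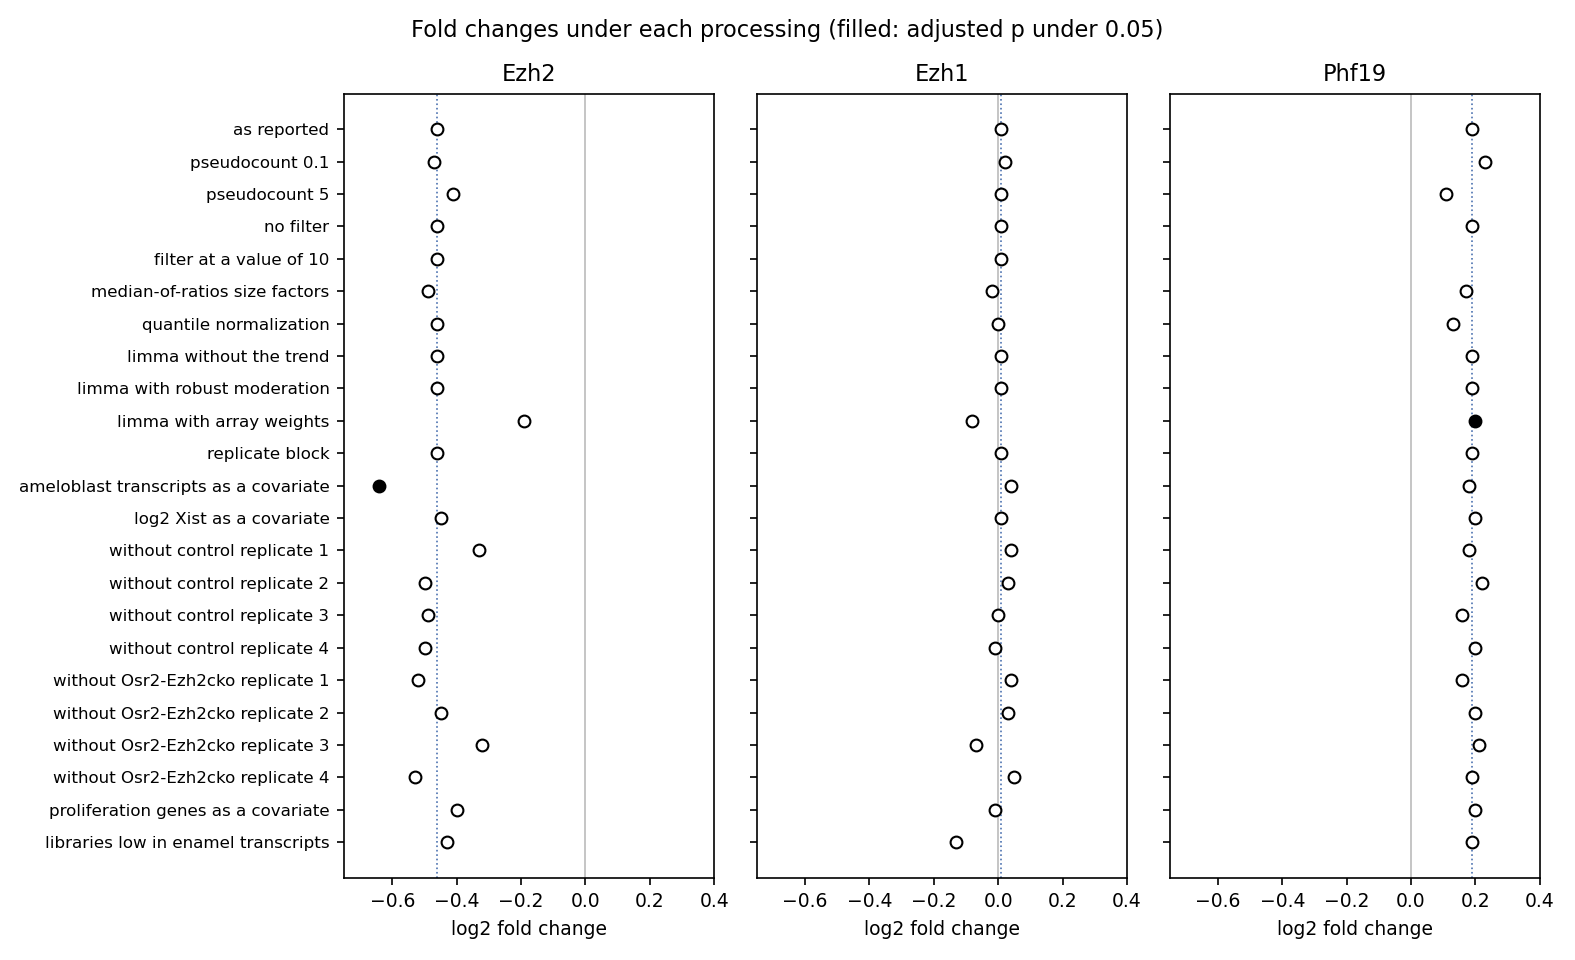
Log2 fold change (x axis) of Ezh2, Ezh1 and Phf19 under each processing tried (rows); filled points have an adjusted p under 0.05, the dotted line is the reported value and the grey line is 0. Ezh2 stays below 0 throughout, from -0.64 to -0.19, Ezh1 lies on both sides of 0, and Phf19 stays above 0 and has no value at a filter of 10.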

How the data were processed

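RNA-seq values of 8 libraries were used, and groups and library numbers were taken from the sample labels. The study's methods give 4 samples per group but speak of sequencing 3 pairs, without saying which libraries these are, and all 8 were kept. The methods name TopHat 2.0.8 as aligner, mm10 as genome and RPKM as the unit for the trimmed 75-cycle single-end reads. The submitters' processing notes also name CASAVA 1.8.2, STAR 2.5.3a and Partek, so the aligner behind the table is uncertain. The deposited values were treated as a normalized signal and not as RPKM or counts: they carry no length factor, their 75th percentiles are 38.45 to 38.46 in all libraries, and whole multiples of a library's smallest value (tolerance 0.02) make up 58.9% to 64.4% of its values below 20 times that value. Because the rest are not whole, no count test was run. The smallest value of a library was taken as 1 read added to each gene, and estimated reads are the value divided by it, minus 1. The table held 0 other columns of per-sample values.

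Fold changes were differences of mean log2(value + 1), which understates those of low genes, and the test was limma's (version 3.58.1, R 4.3.3; lmFit, then eBayes with a trend). It ran over 14854 genes, those reaching a value of 1 in 4 or more libraries, with Benjamini-Hochberg adjustment. For single genes, two-sided exact permutation tests over the libraries were added (numpy 2.4.6). Nothing states that libraries came from separate litters, and p-values measure the spread between these libraries. Exon length was the union of exons of coding transcripts in GENCODE M21, in which all 9 members matched. The members and gene lists, were chosen with earlier results of these data known. Of the listed genes, Ezhip was not analysed here, and 1 other gene is not reported here. Alternatives covered pseudocounts, filters, scalings, limma options, covariates, the replicate block and each library left out. No amino acid sequence was used here.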

Additional observations from a re-analysis of the deposited data

Results flagged for a closer look

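In groups of 4 libraries, a library was singled out where its gap to the nearest other library, divided by the range of the group, was above Dixon's 95% critical value. This was done for the members, the other PRC2 pathway genes and the proliferation genes. Among the 9 members it held in 2 of 18 groups, where chance gives about 0.9. Ezh2 in control library 1 was 55.0, against 38.3 to 39.6 in the other control libraries, and Ezh1 in Osr2-Cre;Ezh2fl/fl library 3 was 25.7, against 19.9 to 20.8. Over all 88 groups examined it held in 4, where chance gives about 4.4. The other 2 were also in Osr2-Cre;Ezh2fl/fl library 3: Rbbp7 at 200.1, against 231 to 236, and Lcorl at 31.5, against 24.7 to 25.5. That library also had the lowest proliferation sum, 976, and an enamel sum of 11280, and the part of either in these values was not tested.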

How the results depend on the processing

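The Ezh2 log2 fold change was negative under all 22 alternatives (-0.64 to -0.19) and passed the adjusted threshold only with the ameloblast covariate (-0.64, adjusted p = 0.0274, limma; adjusted p up to 0.657 elsewhere). Array weights brought Jarid2 (-0.26) and Phf19 (0.20) past it, and the adjusted calls among members were 1 with the covariate and 2 with the weights. Small fold changes changed sign: Ezh1 was -0.02 with median-of-ratios size factors, -0.08 with array weights, -0.01 with the proliferation covariate and -0.13 in libraries low in enamel transcripts. In these last libraries Mtf2 was -0.03 and Phf1 -0.02. Aebp2 was 0.05 with array weights, and Rbbp7 was -0.02 with the ameloblast covariate and -0.00 with median-of-ratios. Leaving out single libraries gave -0.53 to -0.32 for Ezh2, -0.07 to 0.05 for Ezh1, -0.01 to 0.14 for Mtf2, -0.05 to 0.02 for Aebp2, 68.7% to 80.0% for the Ezh2 ratio of means, 0.26 to 0.60 for the Ezh1 to Ezh2 log2 ratio, 0 adjusted and 1 to 3 unadjusted calls among the members, and 128 to 384 adjusted and 1270 to 2198 unadjusted calls over all genes. With 3 against 4 libraries the smallest two-sided exact permutation p is 0.0571.

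Over all genes, 308 were called after adjustment and 1953 before. These became 119 and 1154 at a filter of 10, 4040 and 6045 with array weights, and 8 and 1034 in the libraries low in enamel transcripts. Nothing states that the replicate numbers pair the libraries. Correlations of same-numbered deviations were -0.34, -0.08, 0.22 and -0.43, and 1 of 4 control libraries was most like its own number. As they use few libraries centred on their group mean, these correlations cannot exclude a pairing. With the numbers as a replicate block, 73 genes and 0 members were called after adjustment and 1 member before it. Ezh2 then had an adjusted p of 0.241 (limma). Unadjusted calls among members were also 1 in the libraries low in enamel transcripts. Epop lay between 0.48 and 0.79 under all alternatives and passed the adjusted threshold (limma) under 3 of 22. At a filter of 10 Phf19 had no value. The cause of these changes was not tested. Where array weights are used, 1 library decides much of the fit.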
